A study of Sus scrofa with 16 samples.

Results

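Apoptosis is carried out by a receptor branch, a mitochondrial branch and the BCL2 family that controls the second of them, and 9 genes of these branches were examined in the hippocampus of preterm pigs with or without necrotizing enterocolitis (NEC). The 9 genes were the death receptor FAS, the initiator caspases CASP8 and CASP9, the pore-forming effectors BAX and BAK1, the pro-survival genes BCL2, BCL2L1 and MCL1, and the BH3-only gene BCL2L11. They were chosen by name and found through the gene identifiers of the deposited expression table. Of the 9 genes, 4 were matched to an entry, namely FAS (ENSSSCG00000010448), CASP8 (ENSSSCG00000028157), BAK1 (ENSSSCG00000001516) and CASP9 (ENSSSCG00000003460), out of 22815 distinct entries in all. BAX, BCL2, BCL2L1, BCL2L11 and MCL1 were not matched here and are not analysed.

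The study sequenced RNA of the whole left hippocampus, homogenised intact, from 16 pigs that were born preterm by caesarean section and fed increasing amounts of human donor milk for 8 days, so that NEC arose spontaneously in some of them. Si-NEC pigs (n = 6) had severe lesions of the small intestine, alone or together with the colon, Co-NEC pigs (n = 5) had severe lesions in the colon alone, and No NEC pigs (n = 5) had no macroscopic lesions in any gut region. By the labels, the Si-NEC group held 3 females and 3 males, and each of the other groups 2 females and 3 males. All 3 groups shared the preterm birth and the rearing, with donor milk beside decreasing parenteral nutrition, and no term-born or sow-reared pig is among them. The donor milk was of different types, and the labels used here do not give the type for each pig. The number of each pig ended in 14 or 15, a suffix that the labels do not explain, with 2 pigs of suffix 14 in every group. All 6 pigs of suffix 14 were male and all 7 females had suffix 15, so suffix and sex cannot be fully told apart.

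In the receptor branch, a ligand on another cell or in solution gathers FAS and adaptor proteins at the membrane, and the complex activates CASP8. In the mitochondrial branch, BH3-only proteins such as BCL2L11 relieve the block that BCL2, BCL2L1 and MCL1 place on BAX and BAK1, which then open the outer mitochondrial membrane, and released cytochrome c activates CASP9 on the apoptosome. The developing brain loses many of its neurons through the mitochondrial branch as part of normal growth. Caspases are made as inactive precursors, so that an RNA level gives the supply of precursor and not the activity of the enzyme.

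Expression was given as FPKM, that is, fragment counts scaled by gene length and by library size, without read counts, so the depth behind each value is unknown and no counting error could be given. Neuronal RNA was present in every pig, as 7 neuronal marker genes (SYT1, MAP2, NEFL, STMN2, SLC17A7, GAD1 and GAD2) summed to 2075 to 3138 FPKM over the 16 pigs. No marker of the hippocampus itself was used, so the labelled brain region was not checked. FPKM values summed to between 544629 and 864931 per pig, and 2 libraries stood apart. No NEC pig 230-15 had the highest sum and a median correlation of 0.902 with the other pigs across entries, and Si-NEC pig 223-15 had the next highest sum (823320) and a median correlation of 0.933. Several of the values that rested on these 2 pigs are also given without them.

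The 4 matched genes were expressed at widely different levels. Over the 16 pigs, CASP9 had a mean of 6.90 FPKM, BAK1 5.01 FPKM, CASP8 1.23 FPKM and FAS 0.54 FPKM. Of the 13590 entries tested, 41.6% had a lower mean than CASP9, 33.4% a lower mean than BAK1, 8.86% a lower mean than CASP8 and 0.618% a lower mean than FAS. FAS thus lay just above the minimum mean of 0.5 FPKM that an entry needed to be tested. The order held within single pigs, since CASP9 was above BAK1 in 15 of 16 pigs, the exception being Si-NEC pig 223-15, BAK1 was above CASP8 in 16 of 16 pigs, and CASP8 was above FAS in 16 of 16 pigs. Across pigs the ranges of CASP9 (5.47 to 8.21 FPKM) and BAK1 (3.98 to 6.80 FPKM) overlapped, as did those of CASP8 (0.608 to 1.83 FPKM) and FAS (0.308 to 1.17 FPKM), whereas the lowest BAK1 value lay above the highest CASP8 value. The coefficient of variation over the 16 pigs was 40.5% for FAS, 29.8% for CASP8, 18.6% for BAK1 and 11.7% for CASP9.

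**Figure D1:**
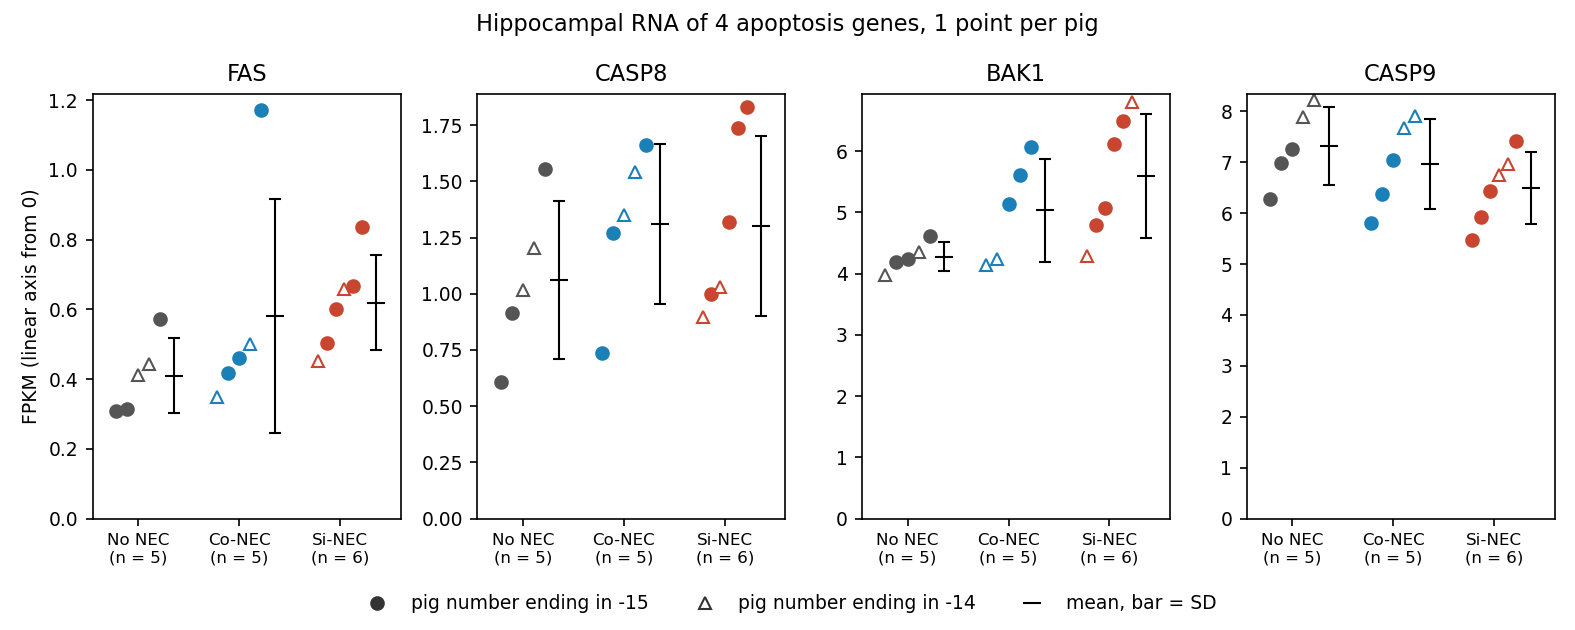
FPKM (linear axes from 0, a different scale in each panel) of FAS, CASP8, BAK1 and CASP9 in the hippocampus of No NEC, Co-NEC and Si-NEC pigs, with 1 point per pig (circles for pig numbers ending in 15, triangles for 14) and the mean with its SD. BAK1 lay between 3.98 and 4.62 FPKM in the No NEC pigs and above 4.62 in 5 of 6 Si-NEC pigs, and 1 Co-NEC pig had a FAS value of 1.17 FPKM.

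FAS, the receptor that starts the extrinsic branch, had a mean of 0.410 ± 0.108 FPKM (SD) across the 5 No NEC pigs, 0.581 ± 0.336 FPKM across the 5 Co-NEC pigs and 0.619 ± 0.136 FPKM across the 6 Si-NEC pigs. The No NEC pigs had 0.308 (230-15), 0.316 (253-15), 0.412 (540-14), 0.443 (550-14) and 0.572 FPKM (228-15). The Co-NEC pigs had 0.349 (545-14), 0.418 (225-15), 0.462 (255-15), 0.502 (552-14) and 1.17 FPKM (231-15). The Si-NEC pigs ran from 0.452 (539-14) to 0.836 FPKM (226-15), with a median of 0.629. Of the 6 Si-NEC pigs, 4 lay above every No NEC pig, while all Co-NEC pigs but 231-15 lay inside the No NEC range, so that the groups overlapped. Si-NEC pigs differed from No NEC pigs by 0.30 on the log2(FPKM + 0.5) scale (SE 0.14, 95% confidence interval -0.01 to 0.61), a 1.51-fold difference of the mean FPKM, with a two-sided exact permutation p of 0.0216 and an adjusted p of 1 over all entries (limma). The adjusted p did not pass a threshold of 0.2, and FAS is not called. The study also used 0.2, but for q values of Cuffdiff, which is a different test. Calls in limma therefore do not show how a gene fared in the study's own test. At FPKM values this near to the added constant the log2 difference depends on it, and it was 0.50 with a constant of 0.1 and 0.20 with a constant of 1. Without pigs 223-15 and 230-15 it was 0.26.

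Co-NEC pigs differed from No NEC pigs in FAS by 0.21 (SE 0.19, exact permutation p = 0.341, adjusted p = 0.813 in limma). That value fell to 0.04 without Co-NEC pig 231-15, whose FAS level was more than that of any other pig. Si-NEC and Co-NEC pigs differed by 0.09 (95% confidence interval -0.31 to 0.49, exact permutation p = 0.667), and by 0.26 without the same pig. FASLG, which encodes the ligand of FAS, was listed at 0 in 11 of 16 pigs and averaged 0.059 FPKM, under the minimum for testing.

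CASP8, the initiator caspase that FAS recruits, had a mean of 1.06 ± 0.352 FPKM (SD) across the 5 No NEC pigs, 1.31 ± 0.356 FPKM across the 5 Co-NEC pigs and 1.30 ± 0.399 FPKM across the 6 Si-NEC pigs. The No NEC pigs had 0.608 (230-15), 0.914 (253-15), 1.02 (540-14), 1.20 (550-14) and 1.56 FPKM (228-15). The Co-NEC pigs had 0.738 (255-15), 1.27 (231-15), 1.35 (552-14), 1.54 (545-14) and 1.66 FPKM (225-15). The Si-NEC pigs ran from 0.898 (539-14) to 1.83 FPKM (246-15), with a median of 1.17. Each group spanned a wide range, with 2 Si-NEC pigs and 1 Co-NEC pig above all No NEC pigs. The log2 difference from No NEC was 0.21 in Si-NEC pigs (SE 0.20, exact permutation p = 0.320) and 0.22 in Co-NEC pigs (SE 0.20, exact permutation p = 0.294), with adjusted p values of 1 and 0.812 in limma. Both values depended on single pigs, among them No NEC pig 230-15, the lowest of its group. Without it the Si-NEC difference was 0.09 and the Co-NEC difference 0.11, and the Si-NEC difference was 0.03 without pigs 223-15 and 230-15. Other pigs moved the values the opposite way, the Si-NEC difference being 0.32 without No NEC pig 228-15 and the Co-NEC difference 0.35 without Co-NEC pig 255-15. Si-NEC differed from Co-NEC by -0.01, with a 95% confidence interval of -0.42 to 0.40 and an exact permutation p of 0.961, an interval that leaves room for a difference in either direction.

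BAK1, which opens the outer mitochondrial membrane together with BAX, had its lowest mean in the pigs without NEC. Its mean was 4.28 ± 0.236 FPKM (SD) across the 5 No NEC pigs, 5.04 ± 0.842 FPKM across the 5 Co-NEC pigs and 5.60 ± 1.02 FPKM across the 6 Si-NEC pigs. The No NEC pigs had 3.98 (550-14), 4.19 (253-15), 4.24 (230-15), 4.36 (540-14) and 4.62 FPKM (228-15). The Co-NEC pigs had 4.14 (545-14), 4.24 (552-14), 5.13 (225-15), 5.61 (255-15) and 6.07 FPKM (231-15). The Si-NEC pigs had 4.29 (547-14), 4.80 (224-15), 5.07 (226-15), 6.11 (246-15), 6.50 (223-15) and 6.80 FPKM (539-14). The No NEC pigs lay close together, and 5 of 6 Si-NEC pigs and 3 of 5 Co-NEC pigs exceeded all of them, the others lying inside the No NEC range.

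Relative to No NEC, BAK1 differed by 0.34 in Si-NEC pigs (SE 0.13, 95% confidence interval 0.05 to 0.62), a 1.31-fold difference of the mean FPKM. The two-sided exact permutation p was 0.0130, where the smallest two-sided p that 6 against 5 pigs allow here is 0.00433, and the adjusted p over all entries was 1 in limma. BAK1 is therefore not called, and 11.2% of the tested entries had a larger difference between these groups in either direction. The value was 0.29 without pigs 223-15 and 230-15, and it lay between 0.28 (without 539-14) and 0.40 (without 547-14) when each pig was left out in turn. Co-NEC pigs differed from No NEC pigs by 0.20 (SE 0.12, 95% confidence interval -0.07 to 0.47, exact permutation p = 0.111), with an adjusted p of 0.812 in limma. Si-NEC pigs differed from Co-NEC pigs by 0.13 (95% confidence interval -0.18 to 0.44, exact permutation p = 0.355). The 2 comparisons with No NEC share their 5 No NEC pigs, whose narrow spread enters both.

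CASP9, the initiator caspase of the mitochondrial branch, had the reverse order of group means. It averaged 7.32 ± 0.763 FPKM (SD) across the 5 No NEC pigs, 6.96 ± 0.879 FPKM across the 5 Co-NEC pigs and 6.49 ± 0.709 FPKM across the 6 Si-NEC pigs. The No NEC pigs had 6.27 (228-15), 6.99 (253-15), 7.25 (230-15), 7.88 (550-14) and 8.21 FPKM (540-14). The Co-NEC pigs had 5.80 (225-15), 6.38 (231-15), 7.04 (255-15), 7.68 (545-14) and 7.90 FPKM (552-14). The Si-NEC pigs ran from 5.47 (224-15) to 7.41 FPKM (246-15), with a median of 6.59. Below all No NEC pigs were 2 Si-NEC pigs and 1 Co-NEC pig, and most values of the 3 groups lay in a common range. The log2 difference from No NEC was -0.16 in Si-NEC pigs (SE 0.11, 95% confidence interval -0.41 to 0.08, exact permutation p = 0.108) and -0.07 in Co-NEC pigs (SE 0.12, exact permutation p = 0.484), with adjusted p values of 1 and 0.872 in limma. The Co-NEC value was -0.01 when pig 225-15 was left out and -0.12 when No NEC pig 228-15 was. The difference of Si-NEC from Co-NEC was -0.09 (95% confidence interval -0.33 to 0.14, exact permutation p = 0.346).

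**Figure D2:**
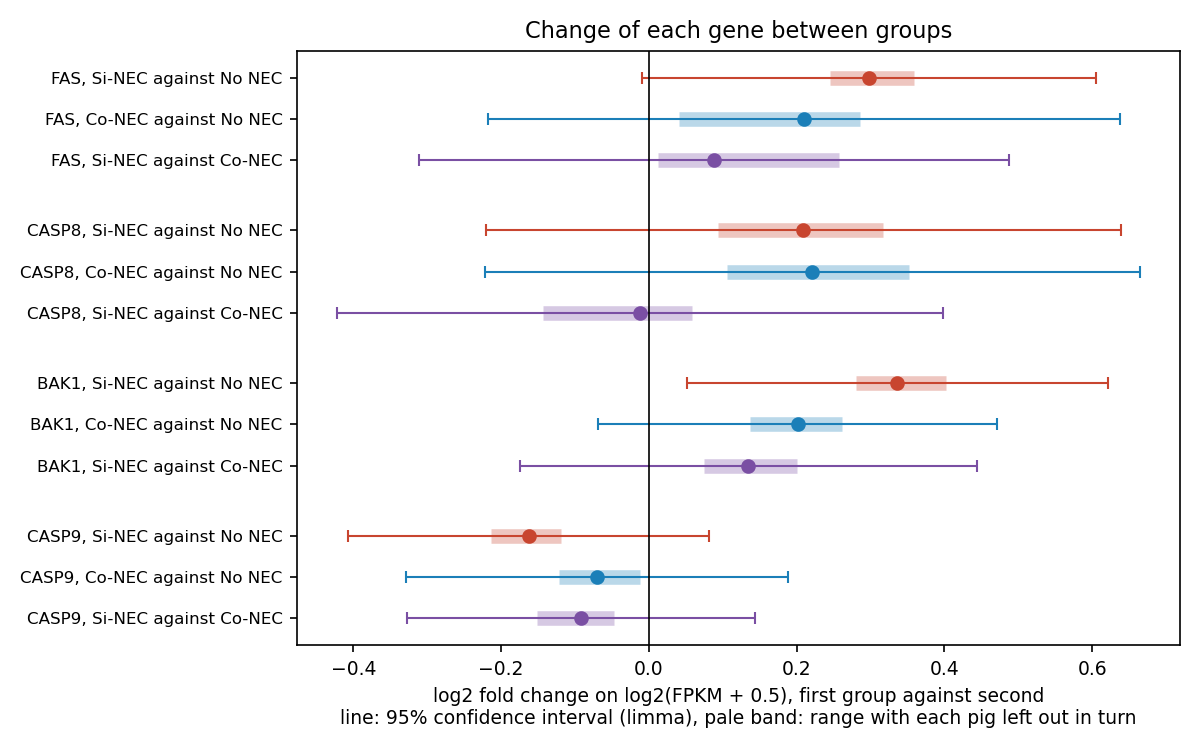
Log2 fold change on log2(FPKM + 0.5) of FAS, CASP8, BAK1 and CASP9 in each of the 3 comparisons, first group against second, with limma 95% confidence intervals (lines) and the range reached when each pig is left out in turn (pale bands). Only the interval of BAK1 in Si-NEC against No NEC, 0.05 to 0.62, leaves out 0, and the band of CASP8 in Si-NEC against Co-NEC crosses 0.

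No gene of the 4 passed an adjusted p of 0.2 in any comparison in limma, where the share of all entries that did was 0.00736% in Si-NEC against No NEC, 0.00736% in Co-NEC against No NEC and 0.0147% in Si-NEC against Co-NEC. At an unadjusted limma p under 0.05, 1 of the 4 genes (BAK1) passed in Si-NEC against No NEC, against 2.61% of all entries. None passed in Co-NEC against No NEC (3.44% of all entries) or in Si-NEC against Co-NEC (5.64% of all entries). By the exact permutation test, 2 of the 4 genes (BAK1 and FAS) had an unadjusted p under 0.05 in Si-NEC against No NEC, where 2.47% of all entries did. None of the 4 did in Co-NEC against No NEC (4.37% of all entries) or in Si-NEC against Co-NEC (6.15% of all entries). In 12 of 12 cases the groups overlapped. Groups that did not overlap were found for 0.155% of all entries in Si-NEC against No NEC, 0.464% in Co-NEC against No NEC and 0.545% in Si-NEC against Co-NEC. The labels do not say from how many sows the pigs came, and the p values measure the spread between these pigs. In RNA of a whole hippocampus, fewer cells of a type and less RNA per cell cannot be told apart.

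Within pigs of the same number suffix, BAK1 differed between Si-NEC and No NEC by 0.34 among the 4 pigs of suffix 14 and by 0.33 among the 7 of suffix 15. Its difference between Co-NEC and No NEC was 0.01 among pigs of suffix 14 and 0.33 among those of suffix 15. Among pigs of suffix 15, BAK1 was 4.19 to 4.62 FPKM in 3 No NEC, 5.13 to 6.07 in 3 Co-NEC and 4.80 to 6.50 in 4 Si-NEC pigs. The share of all entries with ranges apart in this way within suffix 15 was not computed. Among pigs of suffix 14, the 2 Co-NEC pigs (4.14 and 4.24 FPKM) lay between the 2 No NEC pigs (3.98 and 4.36 FPKM), and the 2 Si-NEC pigs had 4.29 and 6.80 FPKM. For FAS, the Si-NEC differences were 0.18 and 0.36 and the Co-NEC differences -0.01 and 0.35 in suffix 14 and 15, respectively. The last value rested on Co-NEC pig 231-15 and was 0.08 without it, the other 2 Co-NEC pigs of suffix 15 lying inside the range of the No NEC pigs. CASP8 differed in direction between the suffixes in Si-NEC against No NEC, at -0.14 in suffix 14 and 0.39 in suffix 15. For CASP9 the same difference was -0.22 and -0.11.

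**Figure D3:**
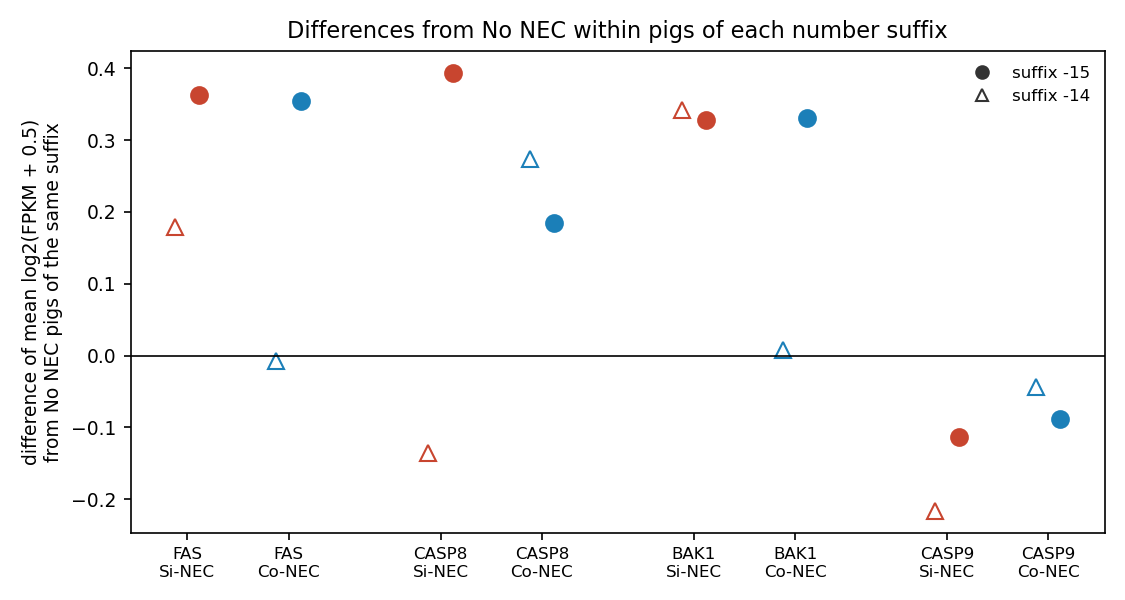
Difference of the mean log2(FPKM + 0.5) of Si-NEC or Co-NEC pigs from No NEC pigs of the same number suffix (triangles 14, circles 15), for each gene. The Si-NEC difference of BAK1 was 0.34 and 0.33 in suffix 14 and 15, while its Co-NEC difference was 0.01 and 0.33.

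CASP9 also varied with the suffix itself, which is partly confounded with sex, since all pigs of suffix 14 were male. It was 7.57 ± 0.578 FPKM (SD, n = 6) in pigs of suffix 14 and 6.49 ± 0.656 (SD, n = 10) in pigs of suffix 15, a log2 difference of 0.21 with an exact permutation p of 0.00724 and an adjusted p of 0.0579 over the 8 tests of suffix and sex. The other 7 tests had adjusted exact permutation p values of 0.307 or more. By sex, CASP9 averaged 6.49 FPKM in the 7 females and 7.21 FPKM in the 9 males. The males of suffix 15 had 5.80 (225-15), 6.43 (226-15) and 7.25 FPKM (230-15). These values lay inside the range of the females, 5.47 to 7.41 FPKM, so the averages by sex do not show a difference apart from suffix. Si-NEC had 4 of 6 pigs of suffix 15 and the other groups 3 of 5. With the suffix as a covariate the BAK1 difference between Si-NEC and No NEC was 0.33.

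No interaction of the 4 genes with sex passed an adjusted p of 0.2 in limma, the smallest being 0.484. That value was for CASP8 in Si-NEC against Co-NEC, where the log2 difference was 0.42 among females and -0.36 among males. Male Co-NEC pigs (n = 3) had 1.35 to 1.66 FPKM of CASP8 against 0.898 to 1.32 in male Si-NEC pigs (n = 3). Female Co-NEC pigs had 0.738 and 1.27 FPKM against 0.999 to 1.83 in female Si-NEC pigs. Ranges within a sex were apart in other cases too. In CASP9, male Si-NEC pigs had 6.43 to 6.96 FPKM and male No NEC pigs 7.25 to 8.21 FPKM. In FAS, male Si-NEC pigs had 0.452 to 0.836 FPKM and male No NEC pigs 0.308 to 0.443 FPKM. How many of all entries have ranges apart in so few pigs of one sex was not computed. The BAK1 difference of Si-NEC from No NEC was 0.35 among females and 0.31 among males.

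Single pigs held the same end of their group for several of the genes. Among No NEC pigs, 228-15 was highest for FAS, CASP8 and BAK1 and lowest for CASP9, and 230-15 was lowest for FAS and CASP8. Co-NEC pig 231-15 was highest for FAS and BAK1 in its group. Si-NEC pig 539-14 had the highest BAK1 value of all pigs but the lowest FAS and CASP8 values of its group. Over the 16 pigs, the correlations among the 4 genes (6 pairs) ran from a Pearson's r of -0.47 to 0.41. The strongest was that of CASP9 with FAS, with Pearson's r = -0.47 (permutation p = 0.0641, adjusted 0.241) and Spearman's rho = -0.54 (permutation p = 0.0333, adjusted 0.112), and r was -0.58 after the 2 pigs with the CASP9 values most distant from the median were left out. Within pigs of suffix 14 and 15 it was -0.63 and -0.39. BAK1 and FAS had r = 0.41 (permutation p = 0.118, adjusted 0.241) and rho = 0.51 (permutation p = 0.0486, adjusted 0.112), and r = -0.69 within the 6 Si-NEC pigs. None of the 6 pairs passed an adjusted permutation p of 0.05.

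Among 8311 named entries, the one whose log2 values over the 16 pigs were most like those of CASP8 was XIAP, an inhibitor of caspases, with r = 0.83 and rho = 0.82. For CASP9 it was WSB1 (r = 0.87, rho = 0.87), for BAK1 NKIRAS2 (r = 0.85, rho = 0.86) and for FAS C4orf19 (r = 0.76, rho = 0.64). These are the highest of many correlations, each taken over the same 16 pigs of all groups, and they are given as a description. XIAP was lowest in pig 230-15 (8.22 FPKM) and highest in pig 223-15 (15.6 FPKM), the libraries that stood apart, and CASP8 was also lowest in 230-15. The correlation of XIAP with CASP8 without these pigs was not computed.

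The rest of the pathway was read from a list of 79 genes in 10 groups by role, of which 44 were matched and 38 had a single entry that could be tested. None passed an adjusted p of 0.2 in limma in any comparison. At an unadjusted p under 0.05, 1 gene (BAK1) passed in Si-NEC against No NEC, 0 in Co-NEC against No NEC and 2 (BID and DAXX) in Si-NEC against Co-NEC. These counts of 38 lay near or under the shares of all entries given above, 2.61%, 3.44% and 5.64%, and the genes described next are those with the smallest p, not genes called. In Si-NEC against No NEC, 22 genes had a higher and 16 a lower mean log2 value, with a median difference of 0.05 against 0.02 over all entries. The split was again 22 to 16 in the other comparisons, with medians of 0.02 in Co-NEC against No NEC and 0.04 in Si-NEC against Co-NEC, where the medians over all entries were 0.01 and 0.00005.

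By level, the most abundant of these genes were VDAC1, a channel of the outer mitochondrial membrane, at a mean of 187 FPKM, FAIM2, an inhibitor of FAS signalling in neurons, at 172 FPKM, and CYCS, which encodes cytochrome c, at 149 FPKM. FAIM2 was thus listed far above FAS itself, and its range over the 16 pigs was 147 to 197 FPKM. Among the receptors and adaptors (7 genes tested), the Si-NEC mean was above the No NEC mean for 6, with a median difference of 0.14 (0.10 without pigs 223-15 and 230-15). One of them, DAXX, which binds the FAS death domain and also acts in the nucleus, averaged 12.8 ± 1.74 FPKM (SD) across the 5 No NEC pigs, 12.3 ± 1.09 FPKM across the 5 Co-NEC pigs and 15.1 ± 2.21 FPKM across the 6 Si-NEC pigs. Its difference was 0.23 from No NEC (exact permutation p = 0.0823) and 0.28 from Co-NEC (exact permutation p = 0.0173, adjusted p = 0.864 in limma), with 4 of 6 Si-NEC pigs above all Co-NEC pigs.

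Of the 4 caspases of the initiator and executioner group that were tested, the Si-NEC mean was above the No NEC mean for 3 and below it for CASP9. CASP6, an executioner caspase, was the most abundant of them, at 21.0 FPKM. CASP10 averaged 0.223 FPKM, under the minimum for testing.

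The 5 BH3-only genes tested, whose proteins act upstream of BAX and BAK1, were mixed. In Co-NEC against No NEC 3 had lower means, and the median difference was -0.21 (-0.09 without pigs 223-15 and 230-15). BBC3, which encodes PUMA, averaged 5.28 ± 1.44 FPKM (SD) across the 5 No NEC pigs, 3.84 ± 0.922 FPKM across the 5 Co-NEC pigs and 5.24 ± 1.49 FPKM across the 6 Si-NEC pigs. It differed by -0.41 between Co-NEC and No NEC (exact permutation p = 0.0635, adjusted p = 0.812 in limma), with 3 of 5 Co-NEC pigs below all No NEC pigs, and by -0.27 without pig 230-15. Si-NEC pigs differed from Co-NEC pigs in BBC3 by 0.40 (exact permutation p = 0.0823). BID, which CASP8 cleaves to link the receptor branch to the mitochondria, averaged 9.52 ± 2.57 FPKM (SD) across the 5 No NEC pigs, 7.97 ± 0.996 FPKM across the 5 Co-NEC pigs and 11.04 ± 2.71 FPKM across the 6 Si-NEC pigs. Si-NEC pigs exceeded Co-NEC pigs in BID by 0.42 (95% confidence interval 0.07 to 0.77, exact permutation p = 0.0390, adjusted p = 0.864 in limma), and 5 of 6 lay above all Co-NEC pigs. The difference was 0.33 without Si-NEC pig 223-15, which had the highest BID value of all pigs (14.9 FPKM). The No NEC range of BID, 6.39 to 13.2 FPKM, covered the whole Co-NEC group.

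Genes of the apoptosome and of release from mitochondria (6 tested) had lower means than in No NEC pigs in 5 cases in Si-NEC and in 5 in Co-NEC pigs, with medians of -0.07 and -0.15. Several of them were highest in No NEC pig 230-15, among them DIABLO at 35.5 FPKM against a median of 16.7 in its group. Without pigs 223-15 and 230-15, 3 of 6 had lower means in Si-NEC and 2 of 6 in Co-NEC pigs, with medians of -0.01 and 0.02. Among the inhibitors of apoptosis (3 tested), XIAP, which blocks CASP9 among other caspases, differed by 0.29 between Co-NEC and No NEC (exact permutation p = 0.151, adjusted p = 0.812 in limma), with 3 of 5 Co-NEC pigs above all No NEC pigs, and by 0.22 without pig 230-15. Differences of the nuclease and clearance genes (3 tested) ran from -0.12 to 0.09 over the 3 comparisons, and those of the p53 pathway genes (5 tested) from -0.16 to 0.22. The 4 genes of inflammatory caspases and necroptosis had median differences from No NEC of 0.16 (Si-NEC, from -0.03 to 0.70) and 0.03 (Co-NEC, from -0.28 to 0.43), the latter being 0.10 without pig 230-15, and none was called. The largest of them in both comparisons, and in the list of 38 genes, was MLKL, which carries out necroptosis, named here after its values were seen. It averaged 0.788 ± 0.819 FPKM (SD) across the 5 No NEC pigs, 1.18 ± 0.755 FPKM across the 5 Co-NEC pigs and 1.52 ± 0.809 FPKM across the 6 Si-NEC pigs, and differed by 0.70 between Si-NEC and No NEC (exact permutation p = 0.147, adjusted p = 1 in limma). The Co-NEC difference was 0.43 (exact permutation p = 0.397), and the groups overlapped. Without pigs 223-15 and 230-15 these differences were 0.83 and 0.30. Of the pro-survival BCL2 group, 0 of 6 genes were matched here, so the balance of BAK1 with its inhibitors was not measured.

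**Figure D4:**
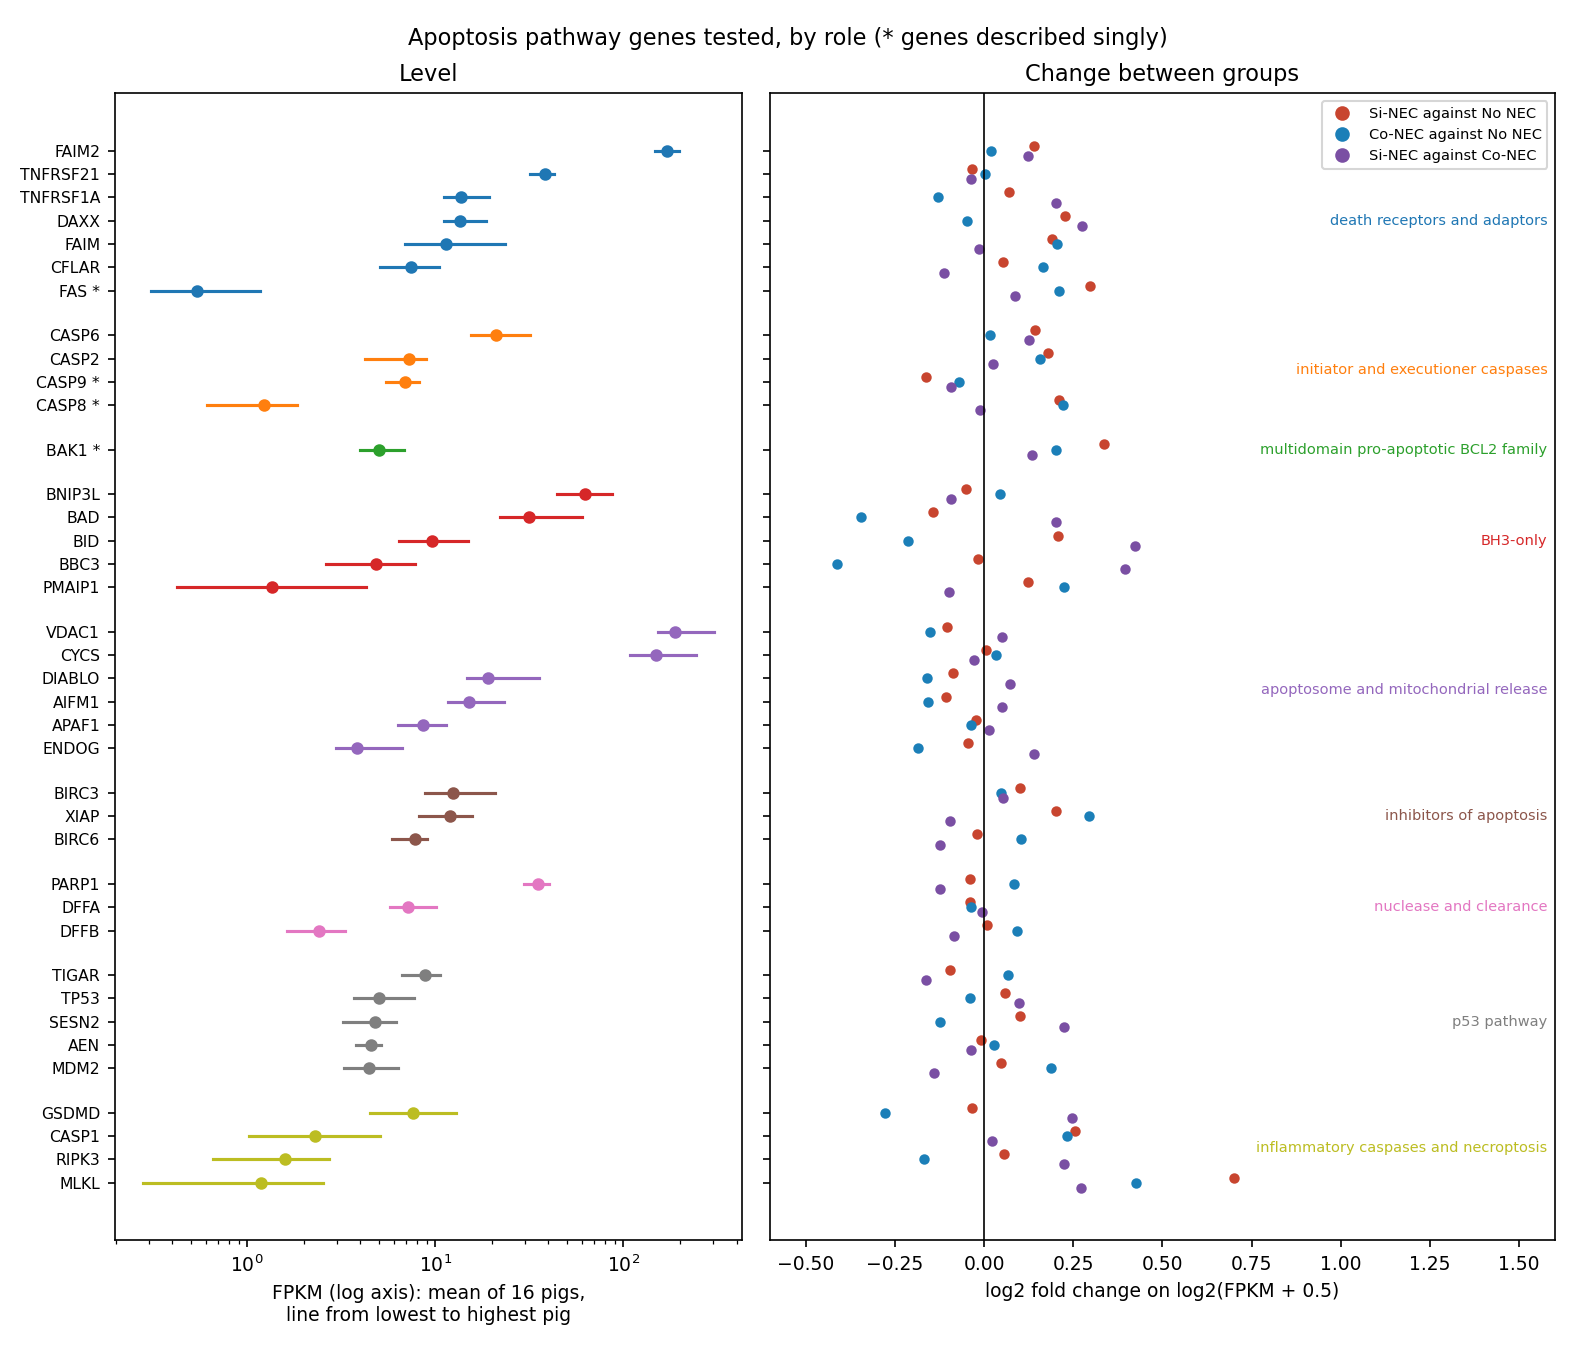
Level (left, mean FPKM of 16 pigs on a log axis with a line from the lowest to the highest pig) and log2 fold change in the 3 comparisons (right) of the 38 apoptosis pathway genes tested, coloured by role. Levels ran from 0.54 FPKM for FAS to 187 FPKM for VDAC1, and no gene passed an adjusted p of 0.2.

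Markers of cell types were read beside these genes. The 7 neuronal markers summed to 2124 to 3138 FPKM (median 2336) in No NEC, 2335 to 2479 (median 2422) in Co-NEC and 2075 to 2717 (median 2249) in Si-NEC pigs, and the Si-NEC mean was below the No NEC mean for 6 of 7, with a median difference of -0.09 and none called. The 6 microglial markers summed to 56.5 to 118 FPKM in No NEC, 63.3 to 92.4 in Co-NEC and 50.0 to 132 in Si-NEC pigs, and the Si-NEC mean was below the No NEC mean for 5 of 6. The 3 endothelial markers summed to 9.82 to 25.1, 15.7 to 22.2 and 16.6 to 31.0 FPKM in the same order of groups. The astrocyte sums (3 markers) were 944 to 1140, 983 to 1095 and 892 to 1528 FPKM. The oligodendrocyte sums (3 markers) were 1450 to 2753, 1644 to 3040 and 1334 to 2942 FPKM. The ranges of these 5 lists overlapped between the groups. Pigs 223-15 and 230-15 set several ends of these ranges. Without them the neuronal sums reached 2530 FPKM in No NEC and 2548 in Si-NEC pigs, and the microglial sums 91.4 and 85.9. The oligodendrocyte sums then reached 2134 FPKM in No NEC and 2212 in Si-NEC pigs, and the Si-NEC astrocyte sum 1101 FPKM. The lowest No NEC endothelial sum was then 17.5 FPKM.

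The neutrophil sum reached its highest values in the Si-NEC group, through 1 gene of the list. The 5 neutrophil markers with values above 0 summed to 1.13 to 3.60 FPKM in No NEC, 1.11 to 2.93 in Co-NEC and 2.73 to 26.3 in Si-NEC pigs. Most of this was S100A8, singled out here after its values were seen, which averaged 1.74 ± 0.912 FPKM (SD) across the 5 No NEC pigs and 12.5 ± 9.26 FPKM across the 6 Si-NEC pigs (log2 difference 2.24, adjusted p = 1 in limma). MPO, a defining neutrophil gene, instead had lower means in Si-NEC (0.169 FPKM) and Co-NEC (0.137 FPKM) than in No NEC pigs (0.378 FPKM). That No NEC mean included 0.940 FPKM in pig 230-15, against a group median of 0.242 FPKM. LTF, ELANE and MMP8 had higher means in Si-NEC pigs (0.403, 0.242 and 0.0820 FPKM) than in No NEC pigs (0.163, 0.191 and 0 FPKM). MPO, LTF, ELANE and MMP8 were all too low to be tested, and CSF3R was listed at 0 in every pig. BAK1 and FAS also had their highest means in the Si-NEC group, and the part of S100A8-expressing cells in their values was not tested. Erythroid markers (3 genes) summed to 85.6 to 1298, 72.3 to 329 and 22.3 to 248 FPKM, and choroid plexus markers (2 genes) to 4.94 to 23.5, 0.232 to 13.3 and 5.52 to 25.5 FPKM, in No NEC, Co-NEC and Si-NEC pigs.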

How the data were processed

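Hippocampal RNA of 16 pigs was sequenced as 150-bp paired ends. The authors trimmed the reads, aligned them to Sscrofa10.2 with TopHat2 2.1.1 and estimated expression with Cufflinks 2.2.1. The deposited table holds 1 FPKM value for each gene of each pig. Which scaling between pigs the table holds is not given in the sources used here. At most 13.4% of up to 185 low values per pig shared one ratio to a reference pig, so no depth could be recovered.

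Of 24594 entries, 1779 identical to another were dropped. Identifiers were joined to symbols through a reference table of gene names, which gave a symbol to 11001 of 21956 gene identifiers (50.1%). The 13590 entries whose mean reached 0.5 FPKM were tested on log2(FPKM + 0.5), which understates the change of low genes. Pairs of groups were fitted separately (limma 3.58.1, R 4.3.3, lmFit, then eBayes with a trend), with Benjamini-Hochberg adjustment over all entries and a threshold of 0.2. For single genes, two-sided exact permutation tests compared the mean log2 values (12 tests for the 4 genes, not adjusted), for which the smallest possible p is 0.00433 with 6 against 5 pigs and 0.00794 with 5 against 5. Interactions with sex were fitted with limma. The fitting step was tested on simulated data. Tables and plots were made with Python 3.11.15, numpy 2.4.6, pandas 2.3.3, scipy 1.17.1 and matplotlib 3.10.9.

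The 9 genes and the lists were chosen with earlier results of these data known. Named beside the 9 genes were the genes of the wider list called in a comparison, the 3 with the smallest unadjusted p in each comparison, and the entry with the highest Pearson correlation with each gene. Other genes of the list were named for their level or role after their values were seen. RIPK1, with 2 entries, was left out.

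Alternatives tried were leaving out each pig, pseudocounts of 0.1 or 1, a minimum mean of 1 FPKM or none, rescaling by the median of ratios, all groups in one fit, sex or suffix as a covariate, eBayes without a trend or robust, array weights, and an adjusted p of 0.05. Leaving out pigs 223-15 and 230-15 together, and pig 231-15 for FAS within suffix 15, was added after seeing the data.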

Additional observations from a re-analysis of the deposited data

Results flagged for a closer look

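FAS in Co-NEC pig 231-15 was 1.17 FPKM, while the other 4 Co-NEC pigs had 0.349 to 0.502 FPKM. Its gap to the nearest pig divided by the range of the group was 0.815, above Dixon's 95% critical value of 0.71 for 5 pigs. It was the only such value among the 12 groups of pigs examined for the 4 genes, and chance alone gives such a value in about 1 in 20 groups. The same pig had the highest BAK1 value of its group (6.07 FPKM), within the limits of that test. Without it, the log2 difference of FAS between Co-NEC and No NEC was 0.04 instead of 0.21.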

How the results depend on the processing

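None of the 4 genes and none of the wider list passed the threshold under any of the 24 alternatives of Si-NEC against No NEC, the 23 of Co-NEC against No NEC or the 24 of Si-NEC against Co-NEC. Array weights raised the count of called entries in the whole table from 2 to 201 in Si-NEC against Co-NEC, with none of the 4 genes or of the wider list among them, and the cause was not tested. Of the 12 log2 differences, 11 kept their direction under every alternative. The exception was CASP8 in Si-NEC against Co-NEC, -0.01 with all pigs, which ran from -0.14 (without 255-15) to 0.058 (without 225-15) when each pig was left out. The smallest adjusted p in limma of any of the 4 genes under any alternative was 0.564, for BAK1 in Co-NEC against No NEC with array weights. A minimum mean of 1 FPKM removed FAS from the test. No paired analysis was possible because the labels give the groups no shared replicate numbers. With no read counts, the precision of FAS and CASP8 at about 1 FPKM and below is unknown.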
